A study of Homo sapiens with 2 samples.

Results

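The ATP-binding cassette (ABC) transporter genes were examined in REH and 697, established human cell lines from acute lymphoblastic leukemia of B-cell precursors (BCP-ALL). Members were the protein-coding genes on autosomes whose GENCODE 44 symbols begin with ABC, a subfamily letter from A to G and a number, and 43 of the 57773 gene IDs in the files met this rule. They comprise 12 ABCA, 8 ABCB, 11 ABCC, 3 ABCD, 1 ABCE, 3 ABCF and 5 ABCG genes. The readthrough gene ABCF2-H2BK1 of GENCODE 44 was not used here, since its ID is not matched. The REH line carries the ETV6/RUNX1 fusion and has no intact ETV6 allele left, whereas 697 lacks the fusion, and both lines were cultured untreated in RPMI medium with 10% fetal bovine serum. Total RNA of each line was sequenced as 1 library, so differences between the lines, between their cultures and between the preparations cannot be told apart, and every value below describes these 2 libraries.

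ABC proteins bind and hydrolyse ATP, and most of them use that energy to move a substrate across a membrane. The substrates range from drugs and conjugated anions to cholesterol, phospholipids, fatty acids, heme precursors and peptides. In leukemia the family is best known for members at the cell surface that export cytotoxic drugs, including vinca alkaloids, anthracyclines, methotrexate and thiopurine metabolites. ABCE1 and the ABCF proteins have the ATP-binding domains but no membrane domain and take part in translation.

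The REH library held 45188375 reads in genes and the 697 library 41097497. Levels are given as CPM, counts per 1000000 reads in genes after scaling of the totals by the trimmed mean of M-values (TMM). Each log2 ratio divides REH by 697, with 0.5 reads added to either count, and its 95% interval covers counting error only. No p-value can be given with 1 library per line. Comparison required 10 or more reads in either library, and a log2 ratio of 2 or more, or of -2 or less, is called past the threshold. The libraries were checked against markers of cell types. Of 10 markers of B-cell precursors, 9 had at least 8438 reads in REH and 3941 in 697, while VPREB1, a chain of the pre-B cell receptor, had 3 reads in REH and 10039 in 697. Of 5 myeloid markers, 3 had at least 10 reads in a library. The summed level of all 5 was 253 CPM in REH and 2.25 CPM in 697. In REH nearly all of it was MPO, with 12643 reads against 12 in 697. The myeloid markers did not share a direction. CSF1R was lower in REH, at 0.597 CPM against 1.65 CPM in 697, while CD14 was higher there, at 0.577 CPM against 0.217 CPM. LYZ and S100A8 had at most 2 reads. No T-cell, erythroid, hepatocyte or epithelial marker had more than 45 reads. A part of MPO-expressing cells in the ABC values was not tested.

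At least 10 reads were found for 28 of the 43 ABC genes in REH (65.1%) and for 27 in 697 (62.8%), close to the shares among all autosomal protein-coding genes, which were 68.3% and 64.4%. Of these, 25 reached that number in both libraries, 3 in REH alone and 2 in 697 alone, so 30 ABC genes were compared. Past the threshold were 7 of the 30 (23.3%), beside 20.7% of all 19145 genes compared and 17.9% of the autosomal protein-coding genes. The 4 higher in REH were ABCA3, ABCA9, ABCG1 and ABCA4 (13.3%, beside 12.5% of all genes and 10.8% of autosomal protein-coding genes), and the 3 higher in 697 were ABCB4, ABCG2 and ABCA10 (10.0%, beside 8.15% and 7.12%). The shares of ABC genes past the threshold were thus near the background in both directions. With the threshold lowered to 1, 18 of the 30 were past it (60.0%), beside 39.8% of all genes and 34.9% of autosomal protein-coding genes. In each direction these were 9 members, beside 22.4% of all genes and 19.5% of autosomal protein-coding genes higher in REH, and 17.4% and 15.4% higher in 697. The median log2 ratio of the 30 was 0.20, beside 0.05 over all genes compared, and the median of its absolute value was 1.32, beside 0.64 over autosomal protein-coding genes. Whether these spreads differ was not tested.

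**Figure D1:**
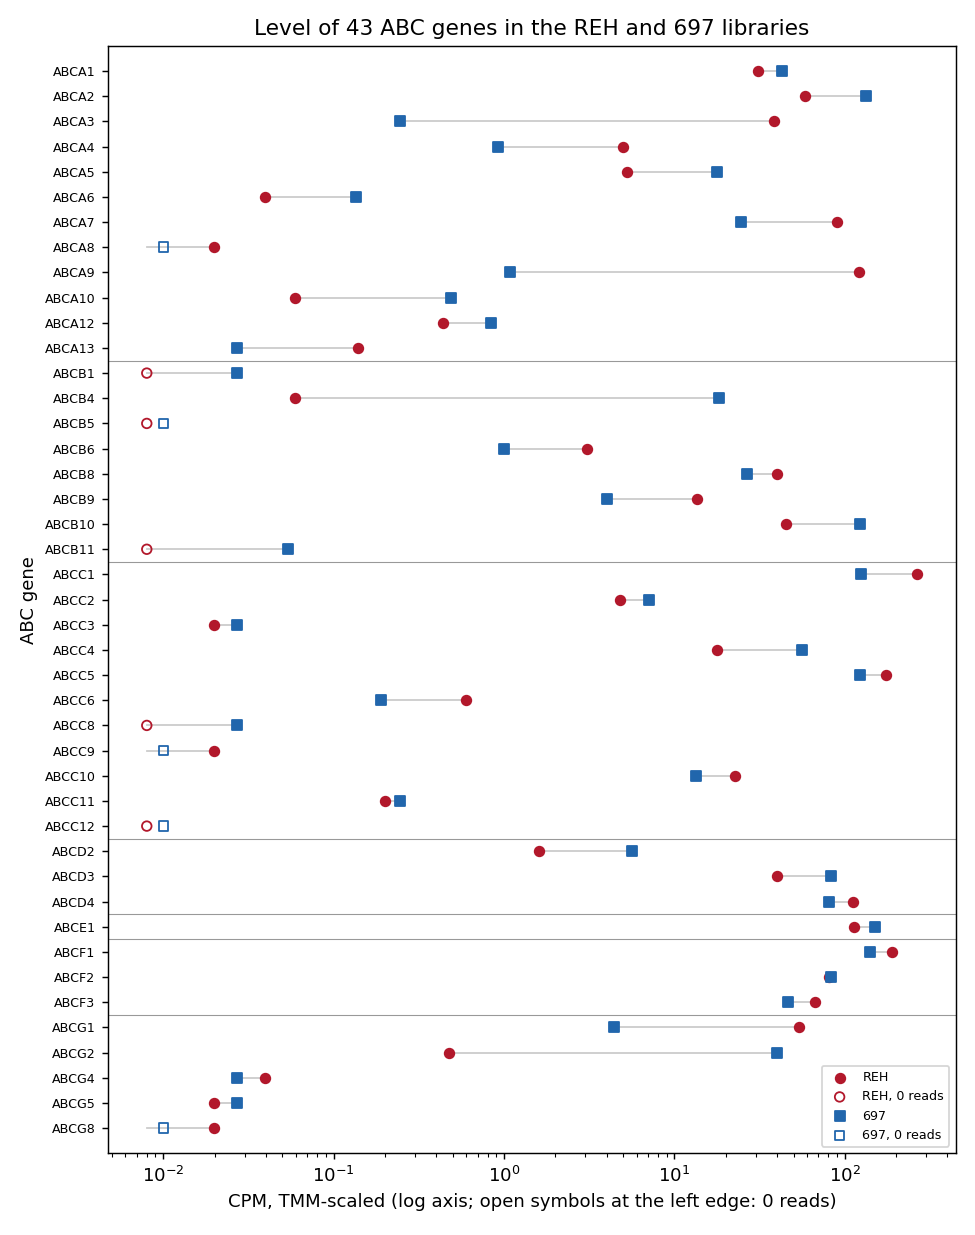
Level of each of the 43 ABC genes in CPM (log axis) in the REH library (circles) and the 697 library (squares), ordered by subfamily, with open symbols at the left edge for 0 reads and a grey line joining the values of a gene. ABCA3, ABCA9, ABCB4 and ABCG2 have the longest lines, while ABCF2 has nearly the same level in both libraries (81.1 and 83.4 CPM).

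The drug efflux members were inspected first. ABCB1, which encodes P-glycoprotein, the exporter of vincristine and anthracyclines, had 0 reads in REH and 1 read in 697. The limits at this depth, set at 3 reads, are 0.0597 CPM in REH and 0.0812 CPM in 697, so ABCB1 was not detectable in either line. ABCC1, which encodes MRP1, an exporter of glutathione and glucuronide conjugates and of several drugs, had 13327 reads in REH and 4608 in 697, or 265 and 125 CPM. Its log2 ratio was 1.09 (interval 1.04 to 1.14), below the threshold, and it was the member with the most reads in REH. ABCC4, which encodes MRP4, an exporter of cyclic nucleotides, nucleotide analogs and methotrexate, was lower in REH, with 898 reads against 2083 in 697. These correspond to 17.9 and 56.4 CPM and a log2 ratio of -1.66 (-1.77 to -1.54). ABCG2, the breast cancer resistance protein, also known as a marker of stem-like side population cells, had 24 reads in REH and 1484 in 697, or 0.477 and 40.2 CPM. Its log2 ratio was -6.37 (-7.04 to -5.82). Of the 3 drug efflux genes compared, only ABCG2 was past the threshold, beside 20.7% of all genes compared (8.15% toward 697). The profile of the drug efflux genes thus differed between the libraries by ABCG2 and ABCC4 on the side of 697 and by ABCC1 on the side of REH, and it lacked ABCB1 in both.

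Per kilobase of merged exon, the scale on which levels of different genes can be compared, ABCC1 stood at 30.3 CPM per kb in REH and 14.3 in 697, ranks 2 and 5 among the 43 genes. ABCC4 reached 2.07 CPM per kb in REH (rank 18) and 6.53 in 697 (rank 12). ABCG2 reached 0.0852 CPM per kb in REH (rank 26) and 7.17 in 697 (rank 11). In 697 the levels of ABCC4 and ABCG2 per kb were thus close to each other and below that of ABCC1, while in REH the order from ABCC1 over ABCC4 to ABCG2 spanned a much wider range.

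Next, the 7 genes past the threshold were described. ABCA3 (chromosome 16, 2275881 to 2340746, GRCh38), which loads phospholipids into lamellar bodies of the lung and lies in intracellular vesicles of other cells, had 1942 reads in REH and 9 in 697. These are 38.6 and 0.244 CPM, with a log2 ratio of 7.23 (6.38 to 8.44). ABCA9 (chromosome 17, 68974488 to 69060949), a gene of the ABCA5-like group whose substrate is not well defined, had 6121 reads in REH and 40 in 697. At 122 and 1.08 CPM its log2 ratio was 6.80 (6.37 to 7.30), and it was the ABCA gene with the most reads in REH. ABCG1 (chromosome 21, 42199689 to 42297244), which passes cellular cholesterol to high-density lipoprotein, had 2722 reads in REH and 164 in 697. At 54.2 and 4.44 CPM its log2 ratio was 3.60 (3.38 to 3.85). ABCA4 (chromosome 1, 93992834 to 94121148), the retinoid transporter of photoreceptors, had 250 and 34 reads, and the interval of its log2 ratio of 2.42 ran from 1.91 to 3.0, across the threshold.

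In the other direction, ABCB4 (chromosome 7, 87401696 to 87480435), the phosphatidylcholine translocator of the bile canaliculus, had 3 reads in REH and 677 in 697. At 0.0597 and 18.3 CPM its log2 ratio was -8.04 (-10.54 to -6.71), the largest in size of the family. ABCG2 (chromosome 4, 88090150 to 88231628) followed with the values given above. ABCA10 (chromosome 17, 69147214 to 69244846), another ABCA5-like gene, rested on few reads, 3 in REH and 18 in 697, with a log2 ratio of -2.85 (-5.44 to -1.25). It was not called when 5 reads were added to each count (2 genes higher in 697) or when reads of the first strand column were used. Intervals lay wholly past the threshold for 5 of the 30 genes (16.7%), beside 13.3% of all genes compared and 13.5% of the autosomal protein-coding genes, namely ABCA3, ABCA9, ABCG1, ABCB4 and ABCG2. Of the members past the threshold ABCA4 was nearest to it, and of those within it ABCA7, at a log2 ratio of 1.87.

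**Figure D2:**
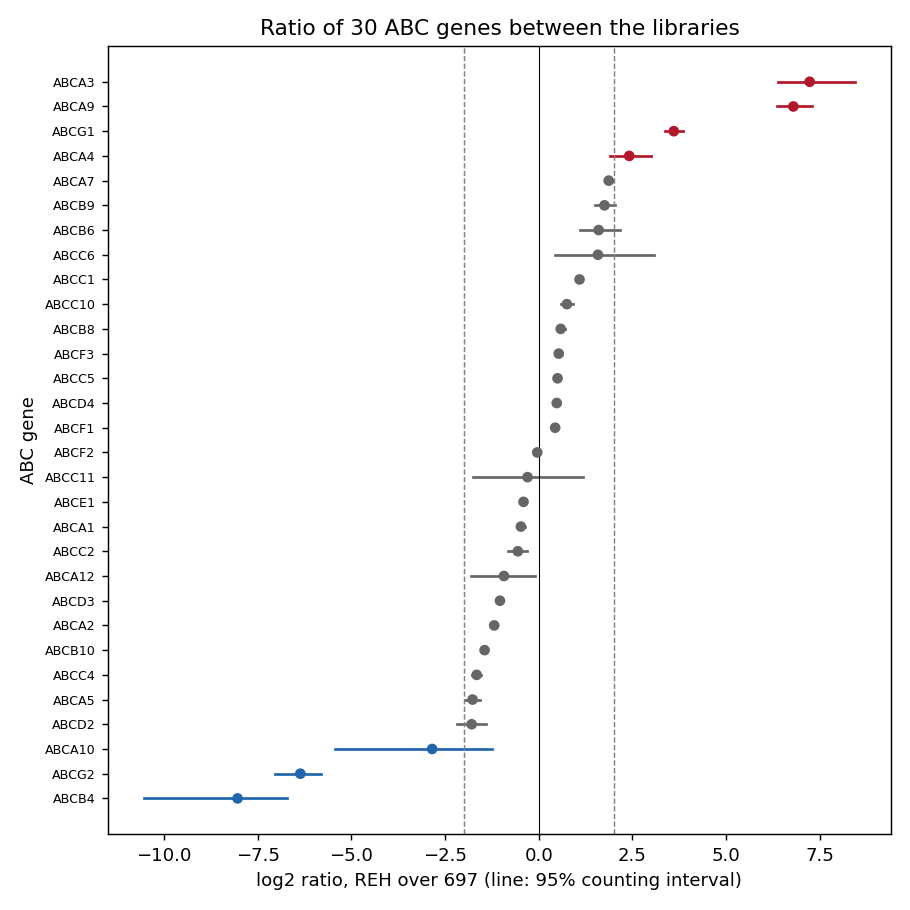
Log2 ratio, REH over 697, of the 30 ABC genes compared, in order of size, with the 95% counting interval as a line, the threshold of 2 in size dashed and the genes past it in color. ABCA3, ABCA9 and ABCG1 at the top and ABCG2 and ABCB4 at the bottom have intervals wholly past the threshold, while those of ABCA4 and ABCA10 cross it.

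To show the sequence at the starts of these genes, the 250 bases upstream of a RefSeq start (GRCh38.p14) are given for the drug efflux genes and for the 2 members with the highest log2 ratios. RefSeq windows matched 35 of the 43 members, and ABCC1, ABCB4 and ABCG1 are among the 8 without a match. Where several starts were listed, as for ABCB1 (2) and ABCG2 (5), the start of the GENCODE canonical transcript was taken. Counts per gene do not tell which start was used. Capitals mark matches on either strand to TGTGGT, the core bound by RUNX factors, to the CCAAT box and to the GC box GGGCGG, none of which overlaps another in these windows. The windows of ABCB1 and ABCG2 lie inside the annotated span of the gene, which begins further upstream. All 5 genes lie on the minus strand, and each sequence is written in the direction of the gene. The windows are chr7:87600885-87601134 for ABCB1, chr13:95301452-95301701 for ABCC4, chr4:88158640-88158889 for ABCG2, chr16:2340729-2340978 for ABCA3 and chr17:69060928-69061177 for ABCA9.
ABCB1: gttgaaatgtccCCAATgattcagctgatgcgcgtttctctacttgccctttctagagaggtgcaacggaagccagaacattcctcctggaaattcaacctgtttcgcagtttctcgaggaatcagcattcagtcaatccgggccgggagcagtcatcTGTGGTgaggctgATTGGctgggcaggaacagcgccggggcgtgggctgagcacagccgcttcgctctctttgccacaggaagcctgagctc
ABCC4: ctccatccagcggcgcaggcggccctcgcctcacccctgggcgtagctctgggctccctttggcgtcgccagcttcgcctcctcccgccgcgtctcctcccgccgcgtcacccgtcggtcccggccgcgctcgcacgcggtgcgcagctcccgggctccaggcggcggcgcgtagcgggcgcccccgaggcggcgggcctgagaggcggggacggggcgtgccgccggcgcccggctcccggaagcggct
ABCG2: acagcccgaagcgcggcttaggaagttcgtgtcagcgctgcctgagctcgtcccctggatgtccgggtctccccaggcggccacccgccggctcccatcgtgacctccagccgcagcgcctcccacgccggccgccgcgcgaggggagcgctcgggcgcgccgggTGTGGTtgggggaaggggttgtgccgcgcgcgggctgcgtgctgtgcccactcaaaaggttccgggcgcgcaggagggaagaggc
ABCA3: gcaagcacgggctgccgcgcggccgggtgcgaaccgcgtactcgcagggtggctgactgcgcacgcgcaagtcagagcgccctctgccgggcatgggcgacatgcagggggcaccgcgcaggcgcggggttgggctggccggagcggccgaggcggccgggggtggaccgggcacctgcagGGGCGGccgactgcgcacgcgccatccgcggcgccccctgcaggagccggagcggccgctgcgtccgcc
ABCA9: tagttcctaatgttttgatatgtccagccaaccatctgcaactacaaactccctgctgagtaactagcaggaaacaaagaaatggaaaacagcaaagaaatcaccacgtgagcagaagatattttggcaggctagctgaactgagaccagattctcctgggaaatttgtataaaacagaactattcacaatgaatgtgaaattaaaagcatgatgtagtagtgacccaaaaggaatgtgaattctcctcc

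The windows ranged widely in base composition. That of ABCA9 had 39.2% G and C and 1 CpG dinucleotide, against 79.2% and 38 for ABCA3, 73.6% and 32 for ABCG2, 80.4% and 42 for ABCC4 and 55.6% and 12 for ABCB1. The median over all 35114 windows of the RefSeq table was 58.0% and 11 CpG. TGTGGT was found in 4 of the 35 member windows (11.4%) and in 11.0% of all windows. The 4 were those of ABCB1 and ABCC12, with at most 1 read in either library, ABCG2, which was higher in 697 (log2 ratio -6.37), and ABCD4, which was higher in REH (0.48). The CCAAT box was found in 8 member windows (22.9%, beside 32.0% of all) and the GC box in 18 (51.4%, beside 42.6%). No motif was common to the 5 windows shown.

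Members that lie next to each other in the genome were compared, since several subfamilies are arranged in clusters. ABCB4 and ABCB1, which encode closely related proteins, are neighbours on chromosome 7 in the same direction with 22581 bases between them. In 697, ABCB4 had 677 reads while ABCB1 had 1. On chromosome 17, ABCA8, ABCA9, ABCA6, ABCA10 and ABCA5 follow each other in the same direction. ABCA9, with 6121 reads in REH, lies between ABCA8 with 1 read and ABCA6 with 2 reads. ABCA5 at the end of this cluster was instead higher in 697, with 263 reads against 659 (log2 ratio -1.77, -1.98 to -1.56). ABCA8 and ABCA6 had at most 5 reads in either library. Most reads of this cluster were thus at ABCA9 in REH and at ABCA5 in 697. On chromosome 16, ABCC1 is followed by ABCC6, an exporter of liver and kidney, with 30 reads in REH and 7 in 697. Reads that match both ABCC6 and its pseudogene copies were not counted, so its values are uncertain. Of the other neighbours, ABCC12 and ABCC11 had 0 to 10 reads, and ABCG5 and ABCG8, whose products together export plant sterols and cholesterol in liver and intestine, had at most 1.

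**Figure D3:**
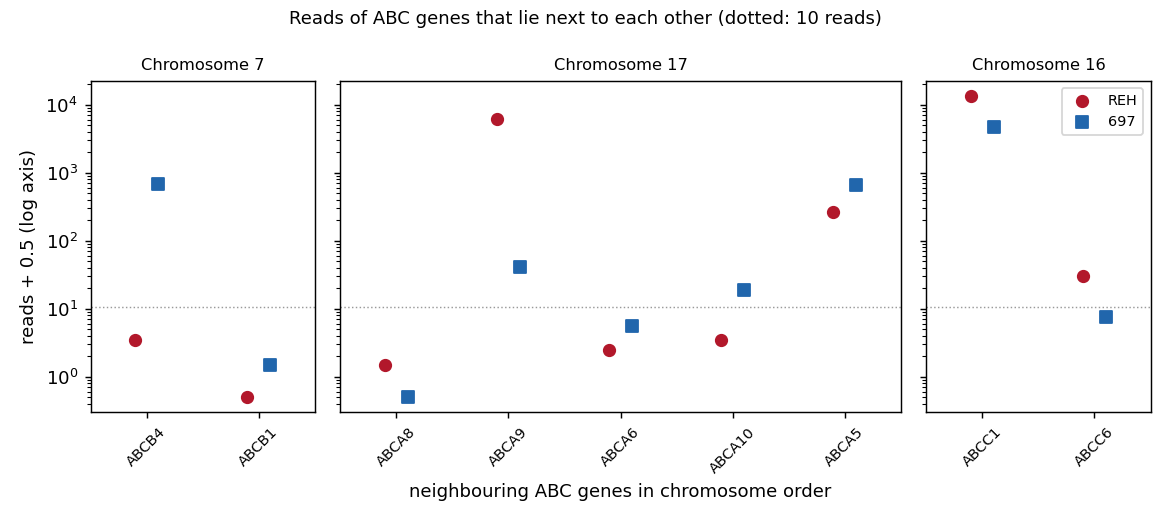
Reads plus 0.5 (log axis) of ABC genes that lie beside each other on chromosomes 7, 17 and 16, in chromosome order, for REH (circles) and 697 (squares), with a dotted line at 10 reads. ABCB4 (677 reads in 697) and ABCA9 (6121 reads in REH) stand far above the ABC genes directly beside them, which have at most 5 reads. CROT, on the other side of ABCB4, is no ABC gene and is not shown.

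The remaining members are given by their roles. Sterol and phospholipid exporters comprised 7 genes, of which 4 were compared. Of these, 1 was higher in REH (ABCG1), 1 was higher in 697 (ABCB4) and 2 were within the threshold. The shares over all genes compared were 12.5% higher in REH and 8.15% higher in 697. ABCA7, which moves phospholipids and takes part in phagocytosis, had 4538 reads in REH and 914 in 697, or 90.3 and 24.7 CPM, with a log2 ratio of 1.87 (1.76 to 1.97). ABCA1, which passes cholesterol and phospholipid to apolipoprotein A-I, had similar read numbers (1554 and 1590), or 30.9 and 43 CPM, with a log2 ratio of -0.48 (-0.58 to -0.38). ABCA1 and ABCG1 are both known targets of the LXR sterol receptors. ABCG1 was higher in REH by far and ABCA1 lower by a small amount, and the part of LXR in either was not tested. Of 4 ABCA genes known from lung, eye and skin, 3 were compared and 2 were higher in REH (ABCA3 and ABCA4), beside 12.5% of all genes compared, with the interval of ABCA4 crossing the threshold. ABCA12, the lipid transporter of keratinocytes, had 22 and 31 reads, and ABCA13 had 7 and 1.

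Of the 6 genes formed by ABCA2 and the chromosome 17 cluster, 4 were compared, with 1 past the threshold in each direction. The shares over all genes compared were 12.5% toward REH and 8.15% toward 697. ABCA2, an endolysosomal transporter abundant in myelinating cells, had 2938 reads in REH and 4925 in 697, or 58.4 and 133 CPM, and a log2 ratio of -1.19 (-1.26 to -1.12). It was the ABCA gene with the most reads in 697, the place that ABCA9 held in REH.

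Of the 7 further ABCC exporters of organic anions and conjugates, 5 were compared, with log2 ratios between -0.56 and 1.58. None was past the threshold, beside 20.7% of all genes compared. ABCC5, which exports cyclic nucleotides, had 8721 reads in REH and 4528 in 697, or 173 and 123 CPM (log2 ratio 0.50, 0.45 to 0.55). ABCC10 had 1135 and 496 reads and ABCC2, the canalicular exporter of bilirubin conjugates, 241 and 261. ABCC3 had 1 read in each library. ABCC11, known for the earwax trait, had 10 reads in REH and 9 in 697, and its exons overlap those of LONP2 on the opposite strand. Its log2 ratio of -0.30 (-1.75 to 1.18) became 0.01 with unscaled totals and 1.94 and 1.76 with the strand columns. ABCC8 and ABCC9, the sulfonylurea receptor subunits of potassium channels, had at most 1 read.

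The mitochondrial ABCB genes were all compared, and all 3 were within the threshold but not in a common direction. Past the threshold were 20.7% of all genes compared, and the interval of ABCB6 crossed it. ABCB10, which is needed for heme synthesis in erythroid cells, had 2256 reads in REH and 4522 in 697, or 44.9 and 122 CPM (log2 ratio -1.45, -1.52 to -1.37). ABCB6, linked to porphyrin transport, went the other way with 154 and 37 reads (log2 ratio 1.60, 1.09 to 2.17). ABCB8 had 2006 and 982 reads (log2 ratio 0.59). For ABCB10, reads that also match near-identical copies were not counted. ABCB9, a lysosomal peptide transporter, had 681 reads in REH and 148 in 697, or 13.5 and 4.01 CPM (log2 ratio 1.75, 1.5 to 2.02). Its exons overlap OGFOD2 and ARL6IP4 on the opposite strand, and its log2 ratio was -0.02 with reads of the second strand column, so its direction is not settled by these counts. ABCB5 had 0 reads in both libraries, and ABCB11, the bile salt export pump, had 0 and 2.

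The ABCD genes were within the threshold, although the interval of ABCD2 crossed it. Of all genes compared, 20.7% were past the threshold. ABCD3, the abundant peroxisomal importer of fatty acids and bile acid precursors, had 2023 reads in REH and 3051 in 697, or 40.2 and 82.6 CPM (log2 ratio -1.04, -1.12 to -0.96). ABCD2, which imports very long-chain fatty acids, was also lower in REH, with 81 and 207 reads (log2 ratio -1.79, -2.19 to -1.42). ABCD4, which takes part in lysosomal cobalamin export, was higher in REH, with 5623 and 2963 reads (log2 ratio 0.48, 0.42 to 0.54).

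The genes of translation lay near a log2 ratio of 0. ABCE1, the ribosome recycling factor, had 5669 reads in REH and 5526 in 697, or 113 and 150 CPM (log2 ratio -0.41, -0.46 to -0.35). ABCF1, which works with initiation factor 2, had 9516 and 5165 reads (log2 ratio 0.44, 0.39 to 0.49), and ABCF3 had 3369 and 1711 (0.53, 0.45 to 0.62). ABCF2 had 4076 and 3082 reads, and its log2 ratio of -0.04 (-0.11 to 0.03) turned to 0.27 with unscaled totals and to 0.02 with the second strand column. All 4 were thus within a log2 ratio of 1, as were 12 of the 30 members. Most genes were within it too, since 39.8% of all genes compared and 34.9% of autosomal protein-coding genes were past it.

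Per kb of exon, these genes also made up a large part of the family level. ABCE1 and the ABCF genes together took 40.4% of the summed CPM per kb in REH and 40.7% in 697. ABCF1 had the highest level per kb in both libraries, at 42.1 CPM per kb in REH and 31.1 in 697. The 5 highest genes took 55.2% in REH, namely ABCF1, ABCC1, ABCE1, ABCF2 and ABCC5, and 57.9% in 697, namely ABCF1, ABCB10, ABCE1, ABCF2 and ABCC1. The lists thus shared 4 genes. With the length of the longest transcript in place of merged exons, 4 of the 5 genes in REH and 3 of the 5 in 697 were retained, and ABCD4 entered both lists.

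By subfamily, the shares of summed CPM per kb differed most for ABCB, at 7.45% in REH and 17.5% in 697, where ABCB10 made up most of it with 28.7 CPM per kb. ABCA genes took 16.7% in REH and 10.0% in 697, and ABCC genes 23.2% and 17.4%. ABCG genes took 4.06% in REH and 4.01% in 697, although different genes held this share, ABCG1 with 8.85 CPM per kb in REH and ABCG2 with 7.17 in 697. Summed over the 43 genes, the family had 80212 reads in REH and 49944 in 697, or 1596 and 1352 CPM, a log2 ratio of 0.24. Across the 30 genes compared, CPM values of the libraries had a Spearman rho of 0.692, beside 0.851 over autosomal protein-coding genes. These are descriptions across genes, which share both libraries and are not replicates.

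**Figure D4:**
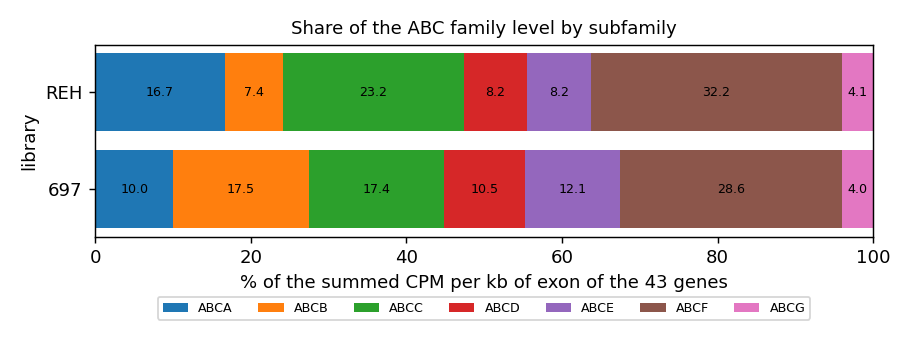
Share of the summed CPM per kb of exon of the 43 ABC genes taken by each subfamily in the REH and 697 libraries, in percent. The ABCB part is wider in 697 (17.5% against 7.45%) and the ABCA part in REH (16.7% against 10.0%), while the ABCG parts are alike (4.06% and 4.01%).

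Genes that work with the family were counted from lists. The first list held 14 regulators of transcription known to act on ABC genes, which are transcription factors and KEAP1, the inhibitor of NFE2L2. Of these, 11 were compared, with 1 past the threshold toward REH and 2 toward 697. Over all genes compared, 12.5% were past it toward REH and 8.15% toward 697. Whether any list differs from those shares was not tested. RXRA, the partner of LXR and other nuclear receptors, had 244 and 2452 reads (log2 ratio -3.77, -3.97 to -3.58). HIF1A, the hypoxia factor, had 2232 and 7976 reads (log2 ratio -2.28). NR1I3, the regulator past the threshold toward REH, had 69 and 6 reads (log2 ratio 2.97, 1.88 to 4.57). The LXR genes NR1H2 and NR1H3 had log2 ratios of -0.52 and 0.39, and NR1I2, the xenobiotic receptor known to induce ABCB1, had 0 reads in both libraries. Of 8 LXR target genes outside the family, 7 were compared and none was past the threshold, beside 20.7% of all genes compared. Their log2 ratios ran from -1.40 to 1.47, and that of ABCG1 was 3.60. The part of these factors in the levels of the ABC genes was not tested.

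Of 9 carriers that take up drugs and nucleosides, 6 were compared, with 1 past the threshold in each direction. The shares over all genes compared were 12.5% toward REH and 8.15% toward 697. SLC19A1, the reduced folate carrier that imports methotrexate, had 3026 and 1570 reads (log2 ratio 0.50, 0.41 to 0.59). SLC29A2, a nucleoside carrier, had 300 and 1541 (log2 ratio -2.80, -2.99 to -2.63). SLC46A1, the carrier past the threshold toward REH, rested on 13 reads in REH and 0 in 697 (log2 ratio 4.31, lower limit 1.16). Of 14 partner proteins, 13 were compared and, beside 20.7% of all genes compared, 1 was past the threshold. This was FECH, the last enzyme of heme synthesis and a partner of ABCB10, with 1813 reads against 196 (log2 ratio 2.76, 2.55 to 2.99), opposite in direction to ABCB10. TAP1 and TAP2, which form the peptide transporter of antigen presentation and belong to the family under other symbols, had log2 ratios of -0.34 and 0.62.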

How the data were processed

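RNA of the BCP-ALL lines REH and 697 was measured in 1 library per line, and each sample was grouped by the cell line in its labels. The authors deposited unnormalized counts of reads per gene, from TruSeq libraries aligned with STAR, with no filter. The methods of the study name hg38 and poly(A) selection, while the labels name hg19 and stranded, ribodepleted libraries, and the annotation release is not given in the sources used here. Reads with several alignments were not counted, which lowers genes with near-identical copies (ABCC6, ABCB10, ABCF2 and others). Strand columns were even (50.1% and 50.2% on the gene strand), so reads of opposite-strand genes cannot be told apart, and the column for either strand was used. The 4 rows that name no gene (29.3% of REH and 30.3% of 697 reads) were left out. Their parts differed between the libraries. Reads with several alignments made up 10.8% in REH and 15.4% in 697, and reads outside exons 12.7% and 9.32%.

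GENCODE 44 gave symbols, positions and merged exon lengths, matched by gene ID for 51996 IDs and not for 5777. All positions are GRCh38 from that annotation or RefSeq, not from the authors. TMM factors from edgeR 4.0.16 under R 4.3.3, over genes that reached 10 reads in either line, were 1.11 for REH and 0.899 for 697. From the deposited counts, CPM and log2 ratios were computed, and log2 ratios carry exact Clopper-Pearson 95% intervals. These intervals and the 3-read floor cover counting error only, since reads without molecular identifiers are not independent. The study used DESeq2, which needs replicates. Named genes were the drug efflux members, those past the threshold, the 5 highest per kb in each library and neighbouring members, with others as examples of their group. Of a list of family genes outside the rule, some are not reported here. The members and lists were chosen with earlier results of these data known. The ratio code was tested on simulated data. Alternatives were size factors of DESeq2 1.42.0, totals without scaling, TMM over protein-coding genes, other minimums, 5 added reads, another threshold, each strand column and transcript length. Scripts ran in Python 3.11.15 (scipy 1.17.1, pandas 2.3.3, numpy 2.4.6, matplotlib 3.10.9).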

Additional observations from a re-analysis of the deposited data

Results flagged for a closer look

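The counts above use reads on either strand, where a read that falls in exons of genes on both strands is left out as ambiguous. The separate strand columns, which were not used for the comparisons, hold such reads, and for 5 members they exceeded the limit of 3 reads that a count of 0 allows. ABCB9 had 2429 such reads in REH and 2160 in 697, more than the 681 and 148 reads counted for it on either strand. ABCC11 had 347 in REH and 65 in 697, against 10 and 9 counted. ABCE1 had 1077 and 949, and its exons overlap OTUD4 and ANAPC10 on the opposite strand. ABCA9 had 182 in REH, where it shares exon sequence with the lncRNA ABCA9-AS1, and ABCB8 had 14 in REH and 8 in 697. Since the reads are spread evenly over the strands, these counts do not tell which gene of each overlap they came from.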

How the results depend on the processing

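No paired analysis was possible because REH and 697 have 1 library each, and likewise no replicate could be left out. At a log2 ratio of 1, 9 genes were higher in REH and 9 in 697. With a minimum of 1 read, 6 genes were higher in 697, the additional ones being ABCB1, ABCB11 and ABCC8 with 1 or 2 reads. The log2 ratio of the summed level was 0.21 with DESeq2 size factors and 0.55 with unscaled totals, which raised the median of all genes by 0.31. Counts of genes higher in REH otherwise ranged from 4 to 6, with ABCA7 and ABCB9 added under unscaled totals and ABCC6 added in the second strand column. ABCA10 was lost with 5 added reads, the first strand column or a minimum of 50 reads, leaving 2 higher in 697. The median ratio ranged from -0.04 (minimum of 1 read) to 0.51 (unscaled totals). No gene past the threshold changed sign among 180 recomputed ratios, while ABCB9, ABCC11 and ABCF2 within it did under the settings named above. Unscaled totals moved 19 of 30 ratios outside their counting interval, the strand columns 2 and 3. Levels per kb left their interval for 46 of 55 values with the longest transcript. Depth limits detection to 0.0597 CPM in REH and 0.0812 in 697.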

Other observations

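The nearest protein-coding genes on either side of the members past the threshold were inspected after the values of the members were known. Beside ABCG1 on chromosome 21, UMODL1 had 437 reads in REH and 19 in 697, with a log2 ratio of 4.04 (3.42 to 4.83), in the direction of ABCG1 (3.60). On the other side, TFF3 had 0 and 5 reads. The neighbours of ABCA3, RNPS1 and CCNF, had log2 ratios of 0.46 and 0.67, against 7.23 for ABCA3. Those of ABCG2, PKD2 and PPM1K, had -1.10 and -0.78, against -6.37 for ABCG2. Beside ABCB4, CROT, an enzyme of peroxisomal fatty acid export, had 363 and 232 reads and a log2 ratio of 0.20 (-0.04 to 0.45), against -8.04 for ABCB4. The neighbours of ABCA4, GCLM and ARHGAP29, were lower in REH (-0.67 and -1.83), while ABCA4 was higher there.

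ABC pseudogenes and antisense genes, which the rule leaves out, numbered 17 in the files. Of these, 12 had 0 reads in both libraries and 3 had at least 10 reads in a library. ABCA17P, which begins beside ABCA3 on the opposite strand, had 131 and 25 reads in REH and 697 (log2 ratio 1.92, 1.32 to 2.62), the same direction as ABCA3. ABCA15P had 27 and 6 reads, and ABCA11P had 58 and 54.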
